A study of Mus musculus with 16 samples.

Results

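Cluster 4 is 1 of 17 cell clusters in a single-cell RNA sequencing study of the mouse spinal cord, where it is called oligodendrocyte. Its members are all cells that the study's cell table assigns to it, 1768 of 18203 cells (9.71%). The study asked how loss of Ryk, a receptor for Wnt proteins, from astrocytes changes the response to a lesion of the dorsal columns. Cells were taken from cord tissue near the lesion of 16 mice, 2 per condition, with 1 droplet-based 3′ library per mouse, and transcripts were counted with unique molecular identifiers (UMIs). Mice with and without the astrocyte knockout were taken without a lesion and at 3 times after it, at 1 d, 7 d or 14 d.

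Knockout (cKO) mice had the genotype Rykfl/fl,GFAPcreERT2 and control (WT) mice Ryk+/+,GFAPcreERT2, so the inducible Cre was present in both. All mice were 8 to 10 weeks old, of both sexes, and received tamoxifen daily for 7 days from 5 d before the operation. The lesion was a cut of 1 mm depth at cervical level 5. Uninjured mice carry the label Sham, and the paper states that they were taken 14 d after the knockout was induced. GFAPcreERT2 drives recombination in astrocytes, so the cells described here were not the ones meant to lose Ryk.

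The mice did not contribute evenly. Among them 15 mice held 29 to 228 Cluster 4 cells (median 111) with 63439 to 790355 UMIs in these cells (median 171153), and the 16th, WT 1 d replicate 2, held 1 cell of any kind, with 266 UMIs. WT 1 d is therefore 1 mouse, and comparisons that use it assume that it varied like the mice of the other conditions. Per mouse, the median Cluster 4 cell had 485.5 to 710 UMIs in the first replicates of WT 1 d, cKO 1 d, WT 7 d and cKO 7 d. In the remaining 11 mice it had 1036 to 2464. Those same 4 libraries shared cell barcodes with each other, 28 to 115 barcodes in each of 6 pairs, while no other pair of libraries shared more than 4. In the pair with the most, 108 of 115 shared barcodes were in the same cluster in both libraries, and in the pair with the next most 65 of 71. Whether these are the same cells counted in both libraries was not tested, and if so the 4 mice are not fully independent. In all, 432 cells carried a barcode seen in another library, 11 of them in Cluster 4, and the 4 libraries held 580 Cluster 4 cells.

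Further properties of the libraries bear on every comparison. The animal numbers in the sample titles fall into a series below 10000 (6 mice, replicate 1 of each condition except 14 d) and a series of 10000 and above (9 mice with Cluster 4 cells, among them all 14 d mice). Within the lower series the 4 injured mice are the 4 libraries that share barcodes, so that injury, depth and shared barcodes cannot be told apart there. The condition written into the cell names differed from the sample title in 6 mice, all replicate 2, and the titles, which the cell table follows, were used. Cells were not screened for doublets here, and 23 Cluster 4 cells held more than 20000 UMIs, up to 65018. WT uninjured replicate 1 held both Xist (144 UMIs) and Y-linked transcripts (1068 UMIs), whereas each of the other 14 mice with Cluster 4 cells had mainly 1 of the 2 kinds. Whether that library holds cells of more than 1 mouse is not known, and it is counted as 1 mouse.

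Oligodendrocytes are the myelin-forming cells of the central nervous system: they wrap axons in many layers of membrane rich in cholesterol and galactolipids, and in proteins such as myelin basic protein. They arise from precursor cells that express Pdgfra and Gpr17, and mature cells take on different states that differ in genes such as Ptgds, Opalin, Il33, Klk6, Hopx and Apod. After spinal cord injury they are exposed to plasma proteins and inflammation, some die, others keep or remake myelin, and myelin proteins such as Mag and Nogo (Rtn4) can inhibit axon growth.

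The 4 genes given as markers of the cluster were well above the other cells. Summed over cells, Opalin, a sialylated membrane protein of myelin, was at 553 counts per 1e6 (CPM) in Cluster 4 and 15.0 CPM in all other cells, 37.0-fold, the largest ratio among genes with a UMI in at least 10% of Cluster 4 cells. Ptgds, the prostaglandin D2 synthase, stood at 8158 against 289 CPM, 28.2-fold and the 3rd highest ratio. St18, a zinc finger factor of the lineage, ranked 21st with 10.8-fold. Mag, the myelin-associated glycoprotein, ranked 32nd. The label therefore matched its markers, although the cluster was built from these genes, so that the ratios describe it and test nothing.

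The other genes with the largest ratios to all other cells were the predicted transcripts Gm42756 (30.4-fold), 4930419G24Rik (27.0-fold), C030029H02Rik (20.1-fold) and Gm36855 (13.9-fold), the slow skeletal troponin gene Tnni1 (20.6-fold), the tetraspanin Tspan2 of myelin (17.9-fold), the receptor gene Npsr1 (16.9-fold) and the cytokine gene Il33 (13.9-fold). Of these 10 genes, 2 were among 16 oligodendrocyte markers and 0 among the markers of 11 other cell types. Npsr1 owed its place to a few mice, as described with the genotype comparison.

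As a share of cells with at least 1 UMI, Ptgds was found in 60.9% of Cluster 4 cells and 9.43% of Cluster 1 endothelial cells, which should lack it, and Opalin in 28.7% and 0.952%. The median depth was 1115 UMIs per Cluster 4 cell. Because depth differed, cells with at least 500 UMIs were also thinned to 500 UMIs each, which left 1530 Cluster 4 and 3154 Cluster 1 cells. After thinning the shares were 43.7% against 5.14% for Ptgds, 13.6% against 0.412% for Opalin, 50.5% against 1.40% for Mag and 51.4% against 1.20% for St18. All 4 shares were far above those of the endothelial cells at equal depth. Mbp was found in 91.5% of thinned Cluster 4 cells and still in 51.0% of thinned Cluster 1 cells, so that its presence in a cell says little by itself. Markers of other types differed in Cluster 4, with thinned shares of 0.327% for the precursor marker Pdgfra, 0.458% for the microglial P2ry12 and 1.83% for the endothelial Cldn5. The astrocyte marker Gfap was found in 9.15% and the neuron marker Snap25 in 7.52% of thinned Cluster 4 cells, against 5.71% and 8.85% of thinned Cluster 1 cells.

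Within Cluster 4 the same genes varied from cell to cell. Among the 1530 thinned cells, Opalin had a UMI in 23.8% of the 669 cells with Ptgds and in 5.69% of those without, and Il33 in 30.6% and 8.59%. The calcium-binding protein gene S100b ran the other way, with 15.4% and 30.8%. Klk6, which encodes a secreted protease, was found in 87 thinned cells, of which 66.7% also had the lipocalin gene Apod, against 31.7% of the cells without Klk6. So Opalin and Il33 were more frequent in cells with Ptgds than in cells without it, though most cells with Ptgds had no Opalin UMI and most had no Il33 UMI, and Apod was more frequent in cells with Klk6. These shares pool cells of all mice and carry no test.

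The study has a second oligodendrocyte cluster, Cluster 8 (892 cells), and precursor cells in Cluster 11 (637 cells). Cluster 4 was compared with each inside the same mouse, in 14 mice with at least 10 cells of both, as the log2 ratio of CPM with 50 CPM added to each. Since the clusters were made from these genes, the comparison is a description without a test. Cluster 4 stood above Cluster 8 in Ptgds, Opalin, Il33 and the glutamate receptor gene Grm3, and below it in Klk6, Hopx, S100b and Apod, in each of the 14 mice.

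Ptgds (ENSMUSG00000015090.13, mm10 chromosome 2, 25466709 to 25470046) averaged 9230 ± 5195 CPM in Cluster 4 against 421 ± 295 in Cluster 8 (SD over 14 mice), a mean log2 ratio of 4.36 ranging from 3.68 to 5.34. Opalin (ENSMUSG00000050121.9, chromosome 19, 41061710 to 41077113) was at 539 ± 154 against 41.4 ± 39.4 CPM, a log2 ratio of 2.74. Klk6 (ENSMUSG00000050063.18, chromosome 7, 43824499 to 43832030) was at 212 ± 227 against 2027 ± 1189 CPM, a log2 ratio of -3.21. In these 3 genes every mouse had the same direction. The other large ratios in favour of Cluster 4 were the adhesion gene Kirrel3 at 3.24, the glutamate receptor gene Grm7 at 2.86, Il33 at 2.47, the anoctamin Ano4 at 2.35 and Palm2 at 2.33. Gm26870 (3.48), Gm10800 (2.68) and Gm10801 (2.27) also ranked among the 10 largest but were higher in 13, 10 and 10 of 14 mice, and reads of such predicted repeat-like genes are hard to assign. In favour of Cluster 8 were Hopx at -3.10, S100b at -2.37, the annexin Anxa5 at -2.23, Mgst3 at -2.12, Tubb2b at -2.07, Cdkn1c at -2.01, Apod at -1.94, Uchl1 at -1.86 and Tppp3 at -1.81.

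**Figure D1:**
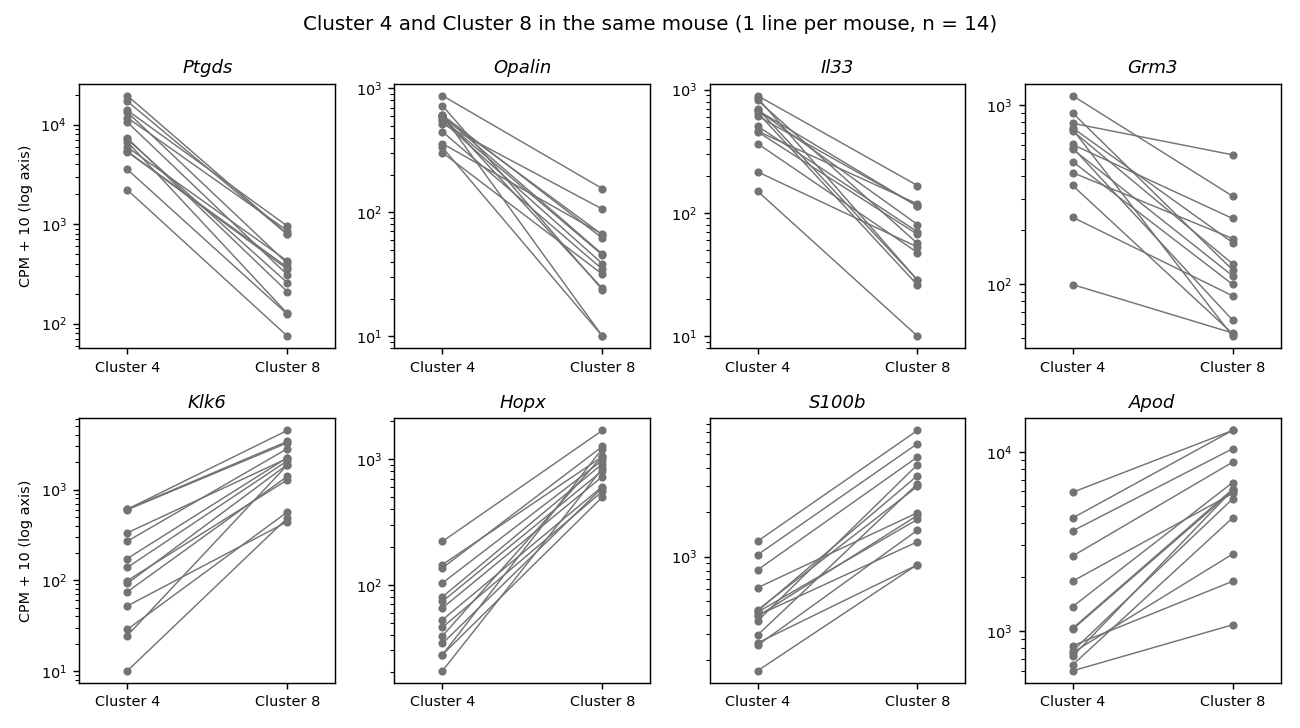
CPM plus 10 (log axis) of 8 genes in Cluster 4 and Cluster 8, with 1 line per mouse (n = 14 mice). Lines of Ptgds, Opalin, Il33 and Grm3 go down from Cluster 4 to Cluster 8 and those of Klk6, Hopx, S100b and Apod go up in every mouse.

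Mag, Mog and Cldn11 set the clusters apart much less. Mag had a mean log2 ratio of -0.09 and Mog of -0.12, each higher in Cluster 4 in 4 of 14 mice, and Cldn11 of 0.01. St18 was the given marker next to Ptgds and Opalin, at 0.77 and higher in 13 mice. Mag therefore marks Cluster 4 against other cells but not against Cluster 8. Of 4096 genes with a mean of at least 50 CPM in either cluster, 107 were at least 1 log2 unit higher on average and higher in every mouse, and 46 were lower, and with thinned counts these were 74 and 33 of 4243. With 5 CPM added in place of 50, the counts were 196 and 78.

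Against the precursor cells, Cluster 4 was higher in Ptgds (mean log2 ratio 4.90), the myelin and lymphocyte protein Mal (4.57), carbonic anhydrase Car2 (4.13), transferrin Trf (4.09) and glutamine synthetase Glul (3.47). It was lower in the matrix gene Tnr (-5.11), Lhfpl3 (-5.10), the phosphatase Ptprz1 (-4.57) and the proteoglycan Vcan (-4.50), each in 14 of 14 mice. Pdgfra averaged 4.93 ± 5.90 CPM in Cluster 4 against 779 ± 230 in Cluster 11, and Gpr17 at 12.7 ± 14.0 and 549 ± 247 CPM. Both genes were thus low in Cluster 4, while other genes of precursors and new oligodendrocytes, such as Bcas1 and Enpp6, averaged 732 and 220.1 normalized CPM there. Here 333 of 4737 genes were at least 1 log2 unit higher and higher in every mouse, and 424 lower, and with thinned counts 155 and 146.

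The share of Cluster 4 among all cells of a mouse ran from 4.60% (95% exact Clopper-Pearson interval 3.51 to 5.92, cKO uninjured replicate 2) to 17.9% (15.5 to 20.4, WT uninjured replicate 1), with a median of 9.78%. Uninjured mice held 17.9% and 4.62% (WT) and 13.9% and 4.60% (cKO), and the values after injury lay between 5.92% and 13.0%. The lower series gave the high uninjured values and the upper series the low ones. Injured and uninjured means were 9.83 ± 2.36% (SD, n = 11) and 10.3 ± 6.71% (n = 4), a difference of -0.424 points with p = 0.849 in a two-sided exact permutation test over mice. Among injured mice, cKO minus WT, averaged over time points, was 0.409 points (exact permutation within time points, p = 0.787).

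Within the series the directions were opposite. In mice with numbers of 10000 and above, the 7 injured mice were all above the 2 uninjured mice, by 4.60 points on average (exact permutation p = 0.0556, smallest possible p = 0.0278). Below 10000, the 4 injured mice were all below the 2 uninjured mice, with a difference of -4.99 points (exact permutation p = 0.0667, the smallest that this design allows). With cells of at least 500 UMIs only, the 4 injured mice below 10000 held 15.0%, 13.3%, 14.3% and 16.2% and the uninjured ones 17.9% and 13.9%, so that the groups overlapped. Without WT uninjured replicate 1 the pooled difference became 2.11 points and without WT uninjured replicate 2 -2.30 points. Shares of cells depend on dissociation and on the other cell types in a suspension, and their part was not tested.

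Of the cells in Clusters 4 and 8 together, Cluster 4 made up 51.2% to 80.6% (median 66.7%). The means were 64.5 ± 15.2% in uninjured mice (n = 4) and 67.1 ± 7.14% in injured mice (n = 11), a difference of 2.58 points (exact permutation p = 0.654). Among injured mice cKO minus WT was -1.59 points (exact permutation p = 0.611). The series again went opposite ways, with 16.6 points in mice of 10000 and above (exact permutation p = 0.0556) and -12.2 points below 10000 (exact permutation p = 0.0667). With cells of at least 500 UMIs only, the injured mice below 10000 held 60.2%, 61.8%, 59.4% and 63.7%. Uninjured mice of that series held 74.5% and 80.6%, so that the groups stayed apart. Cluster 4 was the larger of both clusters in every mouse.

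**Figure D2:**
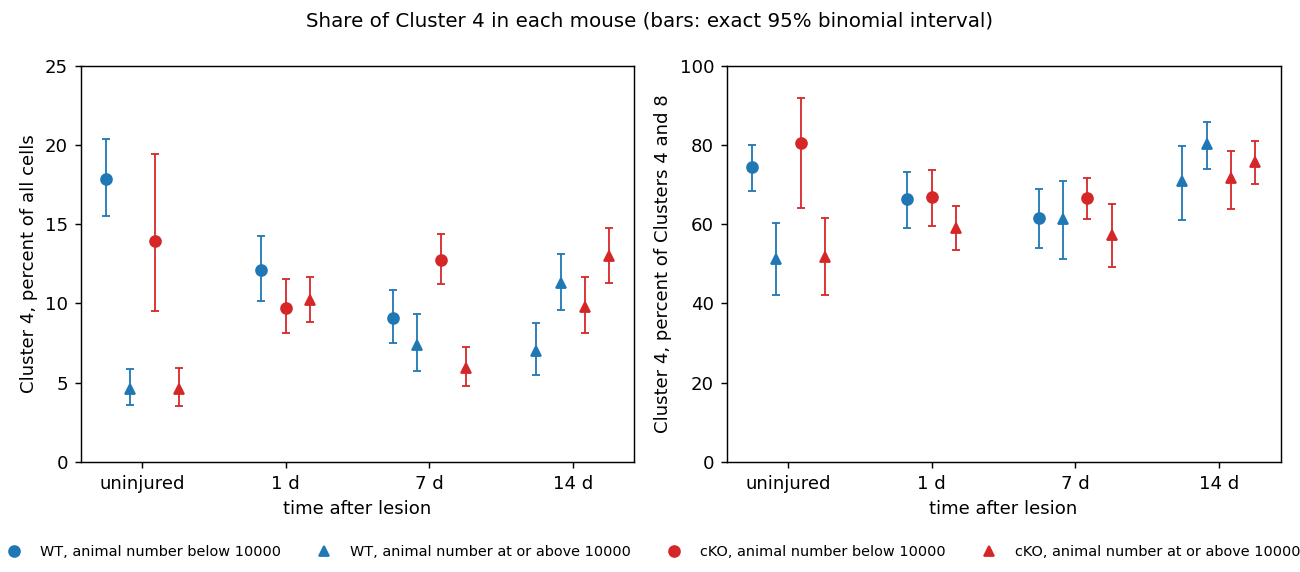
Share of Cluster 4 in percent of all cells (left) and of the cells of Clusters 4 and 8 (right) against time after the lesion, with 1 point per mouse, color for genotype, shape for the animal number series and bars for the exact 95% binomial interval. Uninjured mice of the lower series lie at 17.9% and 13.9% of all cells and those of the upper series at 4.62% and 4.60%.

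Expression was compared between conditions over counts summed per mouse, with all 15 mice in 1 fit and 6302 genes tested. Injury comparisons ask what the lesion does to Cluster 4 cells at each time, averaged over WT and cKO, and all 3 share the same 4 uninjured mice. At 1 d, edgeR called 0 of 6302 genes (0.0%) at a Benjamini-Hochberg adjusted p under 0.05, with 370 genes under an unadjusted 0.05, and DESeq2 called 1. At 7 d edgeR called 0 (0.0%), with 367 genes under an unadjusted 0.05, and DESeq2 0. At 14 d edgeR called 0 (0.0%), with 379 under an unadjusted 0.05, and DESeq2 3 (0.0476%). The gene that led at 1 d was Serpina3n and the one at 14 d C4b, both known from oligodendrocytes in damaged or inflamed tissue, and both passed under several other settings.

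Serpina3n (ENSMUSG00000021091.8, chromosome 12, 104406729 to 104414329), a secreted inhibitor of serine proteases, was at 9.06 and 25.6 (WT) and 11.9 and 0 (cKO) normalized CPM in uninjured mice. It was at 636 (WT), 436 and 449 (cKO) at 1 d, at 379 and 42.0 (WT) and 401 and 10.3 (cKO) at 7 d, and at 296 and 88.4 (WT) and 100.0 and 97.6 (cKO) at 14 d. All mice at 1 d and 14 d were above all uninjured mice, while at 7 d both mice of the lower series were high and cKO 7 d replicate 2 lay inside the uninjured range. The log2 differences of Serpina3n from uninjured mice were 5.74 (SE 1.17) at 1 d, 4.28 (SE 1.19) at 7 d and 3.77 (SE 1.18) at 14 d. At 1 d it was higher in 3 of 3 mice, with a Benjamini-Hochberg adjusted p of 0.719 in edgeR and 0.00394 in DESeq2, the only DESeq2 call at that time (0.0159% of genes).

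With the replicate number as a block, the adjusted p of Serpina3n at 1 d was 0.0487 in edgeR (log2 difference 5.89), the only call (0.0159%). With the animal number series in the design it was 0.00773 (6.06) at 1 d, beside the predicted gene Gm13340, which was high in the libraries that share barcodes. The series in the design also brought Serpina3n past the threshold at 14 d (log2 5.47, edgeR adjusted p = 0.00756). Leaving out cKO 7 d replicate 1 or cKO 7 d replicate 2 gave an edgeR adjusted p of 0.0310 or 0.0300 at 1 d. The call thus depended on the setting, while the values at 1 d were apart from those of uninjured mice in every mouse. Serpina3n had the smallest p of all genes tested at 1 d, so that this separation follows in part from the choice of the gene. The share of all genes with such a separation is not given here. The same holds for the other genes named below for a small p, such as C4b, Enho and Fcho1.

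Serpina3n was found in 1.85% of uninjured Cluster 4 cells and in 20.2%, 8.998% and 7.65% at 1 d, 7 d and 14 d. In Cluster 1 endothelial cells the shares were 0%, 3.59%, 0.585% and 0.806%. Median depths at these times were 1685, 717, 789 and 2056 UMIs in Cluster 4 and 1363, 503, 586 and 3933.5 UMIs in Cluster 1. Thinned to 500 UMIs, the Cluster 4 shares were 0.615%, 14.3%, 4.80% and 1.72%, and those of Cluster 1 0%, 4.26%, 0.143% and 0%. At equal depth the share in Cluster 4 was above the endothelial share at every time. These shares pool the mice of a time point, and in the upper series, the only one with both times, the 14 d mice (88.4 to 296 normalized CPM) were above the 7 d mice (42.0 and 10.3). In the same mice Cluster 8 held more Serpina3n than Cluster 4, 830 ± 781 against 202 ± 207 CPM (SD, n = 14), higher in 12 mice. Thinned Serpina3n shares in Cluster 8 were 2.21%, 26.7%, 19.6% and 14.6% from uninjured to 14 d. Cluster 5 astrocytes, without thinning, had 1.13%, 16.6%, 7.88% and 7.07%. The higher share after injury was thus not particular to Cluster 4.

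C4b (ENSMUSG00000073418.4, chromosome 17, 34728380 to 34743882), a complement component of the classical pathway, was at 27.2 and 25.6 (WT) and 107 and 18.0 (cKO) normalized CPM in uninjured mice. At 14 d it stood at 372 and 183 (WT) and 196 and 269 (cKO), above all uninjured mice, and at 1 d and 7 d between 42.2 and 203. The log2 difference of C4b from uninjured mice was 0.94 (SE 0.67) at 1 d, 1.42 (SE 0.55) at 7 d and 2.54 (SE 0.51) at 14 d. At 14 d the Benjamini-Hochberg adjusted p of C4b, higher in 4 of 4 mice, was 0.567 in edgeR and 0.0467 in DESeq2. It was 0.0187 in edgeR with the replicate block, 0.00324 with the series in the design and 0.0294 in mice of 10000 and above (log2 3.67). Thinned shares of cells with C4b were 1.54%, 5.54%, 6.40% and 7.27% from uninjured to 14 d in Cluster 4, and 0.0978%, 0.888%, 0.286% and 0.346% in Cluster 1. Without thinning they were 5.23%, 8.82%, 11.2% and 27.3% against 0.196%, 0.629%, 1.09% and 2.88%, with the depths given for Serpina3n. Cluster 8 had thinned C4b shares of 1.66%, 3.88%, 6.67% and 14.6%, so that the higher share after injury was not particular to Cluster 4.

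Klk6, the protease that marks Cluster 8, was at 99.6 and 25.6 (WT) and 71.3 and 0 (cKO) normalized CPM in uninjured mice, 605 (WT), 324 and 184 (cKO) at 1 d, 606 and 49.0 (WT) and 622 and 15.4 (cKO) at 7 d, and 285 and 70.4 (WT) and 143 and 86.9 (cKO) at 14 d. The 3 mice at 1 d were above all uninjured mice, and at 7 d the lower series was high and the upper series within the uninjured range. Thinned shares of cells with Klk6 were 2.15%, 7.49%, 10.7% and 3.25% from uninjured to 14 d in Cluster 4. In Cluster 8 they were 19.9%, 40.3%, 48.3% and 31.6%, and in Cluster 1 0.391%, 2.31%, 0.143% and 0.230%. The higher share after injury was thus not particular to Cluster 4. The edgeR log2 differences of Klk6 were 2.79 (SE 1.07), 2.47 (SE 1.01) and 1.33 (SE 1.00), none past the threshold in the designed fit. With the animal number series in the design, Klk6 passed at 14 d (log2 3.68, edgeR adjusted p = 0.0183). In the lower series alone its log2 differences were 2.41 at 1 d and 2.86 at 7 d. The fit of that series had 1 mouse per condition. It assumed the same genotype difference at 1 d and 7 d, which left 1 residual degree of freedom.

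**Figure D3:**
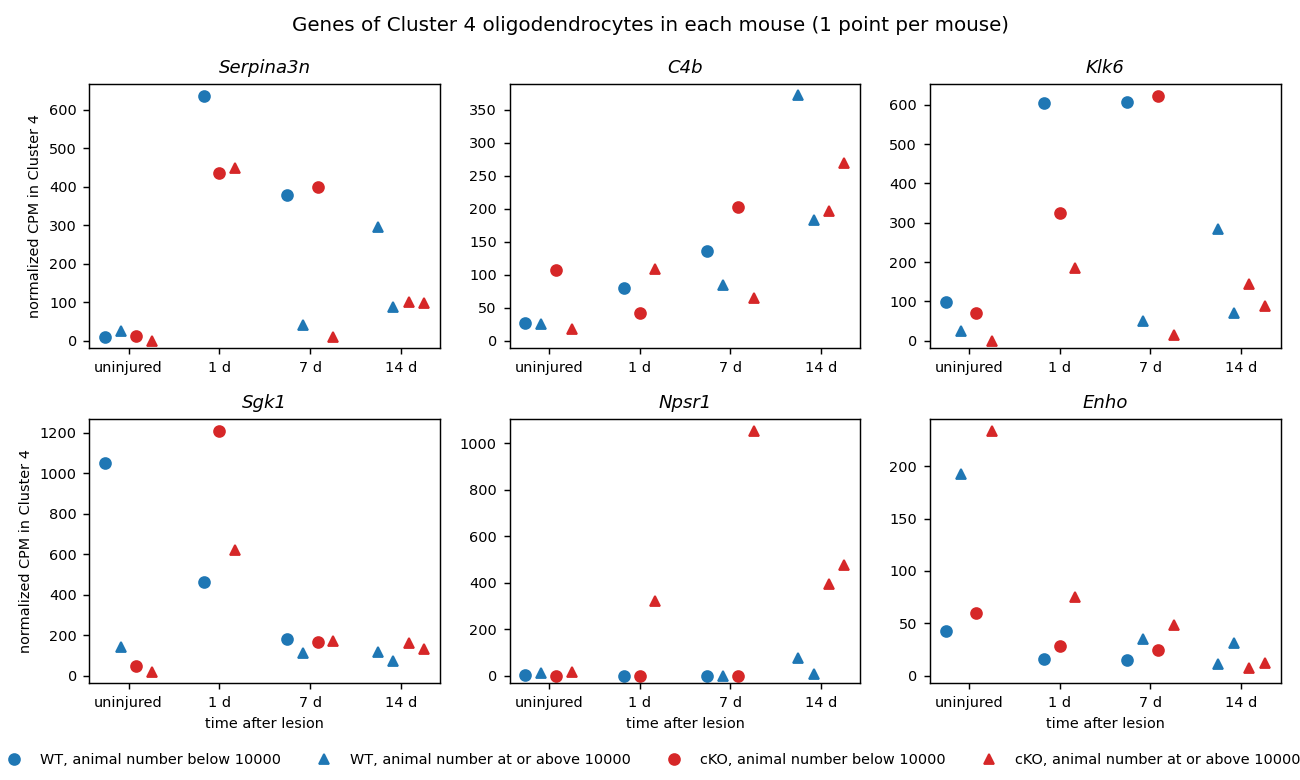
Normalized CPM of 6 genes in Cluster 4 against time after the lesion, with 1 point per mouse (n = 15 mice), color for genotype and shape for the animal number series. Serpina3n lies at 436 or above in all mice at 1 d and at 25.6 or below in uninjured mice, and Npsr1 is high in 4 cKO mice of the upper series.

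As groups of genes, lists are given here by their median log2 difference at 1 d, 7 d and 14 d, beside -0.10, 0.02 and 0.02 over all 6302 genes tested, and no member of any list was called by edgeR in the designed fit. The 16 oligodendrocyte markers had medians of 0.27, 0.27 and 0.14, and 19 tested genes of myelin structure 0.13, 0.23 and 0.06. Of the latter 12, 13 and 11 were above 0. Mbp lay between 4518 and 17502 normalized CPM over all mice (median 6914), with most injured mice inside the range of uninjured ones. The 10 tested lineage transcription factors had medians of 0.45, 0.45 and 0.48, with 9 of 10 above 0 at each time, among them Olig1 (0.89, 0.78 and 0.69) and Nkx6-2 (0.70, 0.86 and 0.72). Summed over the 12 listed factors, uninjured mice ran from 2233 (cKO uninjured replicate 2) to 5979 normalized CPM (WT uninjured replicate 1). All injured mice lay inside that range, at 3530 to 5934 at 1 d, 5077 to 5816 at 7 d and 4278 to 5911 at 14 d.

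The disease-associated list, 11 tested genes that include Serpina3n and C4b, had medians of 0.77, 0.55 and 0.06. Its other members at an unadjusted p under 0.05 were the lysosomal tetraspanin Cd63 (1.52) and the stress gene Gadd45b (3.43) and the protease Klk8, which had a group at 0 UMIs, at 1 d and the protease inhibitor Cst3 at 7 d (-1.67) and 14 d (-1.26). The list of 12 genes that separate mature states had medians of 0.66, 0.18 and 0.16, with Apod at 1.91 and S100b at -1.79 at 1 d. Apod was at 4295 (WT) and 5926 and 1137 (cKO) normalized CPM at 1 d and at 689 to 1515 in uninjured mice, so the difference lay in the lower series. In that series, with the depth difference named above, Apod (log2 2.32), Trf (1.65), Cldn11 (1.67) and Ptgds (0.82) were called at 1 d among 42 rises and 13 falls of 2332 genes (2.36%), and Apod, Trf, Cldn11 and Cnp at 7 d among 35 rises and 16 falls (2.19%).

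Genes of lipid and sterol synthesis, which supply myelin membrane, had medians of 0.20, -0.19 and -0.66 over 27 tested genes. At 14 d 22 of 27 lay below 0, beside 3062 of all 6302 genes, and 8 had a fall with an unadjusted p under 0.05, beside 181 of all genes, among them Fdps (-1.76), Idi1 (-1.64), Insig1 (-1.53) and Hmgcs1 (-1.35). Hmgcs1, a synthase of the sterol pathway, was at 331 and 666 (WT) and 178 and 954 (cKO) normalized CPM in uninjured mice and at 279, 150, 220 and 174 at 14 d. The groups overlapped, and the high values were the uninjured mice of the upper series. In mice of 10000 and above, the list's median at 14 d was -0.49 beside 0.36 over all genes, with Hmgcs1 (-1.83), Idi1 (-2.49) and Insig1 (-1.94) called by edgeR (adjusted p = 0.0327, 0.00638 and 0.0422), among 70 falls of 9543 genes. All 14 d mice belong to that series.

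Stress lists had their highest medians at 1 d, but their sums over all listed genes overlapped between mice at 1 d and uninjured mice. For heat shock and unfolded protein genes the sums were 5532 to 7922 normalized CPM at 1 d and 3638 to 5726 in uninjured mice. The highest sum of that list was in WT 14 d replicate 1, at 9084. Glucocorticoid response genes summed to 1988.5 to 4926 at 1 d and 987 to 2819 in uninjured mice. Immediate early genes summed to 633 to 1139 and 630 to 880. The 17 tested heat shock and unfolded protein genes had medians of 0.76, 0.13 and 0.02, with 15 of 17 above 0 at 1 d, beside 2807 of all 6302 genes. Pdia4 (1.46), Hspd1 (1.37) and Hspe1 (1.28) had an unadjusted p under 0.05, as did 153 rises among all genes. The 13 tested glucocorticoid response genes had medians of 0.67, -0.55 and -0.35, led at 1 d by Sgk1 (2.12). The 7 tested immediate early genes had 0.34, -1.04 and -0.04, with Fos at 2.53 at 1 d, and the dissociation buffer held actinomycin D, which blocks transcription, with digestion at room temperature. The 12 genes of glycolysis and lactate had -0.05, -0.66 and -0.32, and all 12 lay below 0 at 14 d. Their sum was 892 to 2485 normalized CPM in uninjured mice and 764 to 1703 at 14 d, which overlap, and the 2 highest values were the uninjured mice of the upper series. The 7 tested axon growth inhibitors of myelin, among them Mag and Rtn4, had -0.14, 0.56 and 0.24, with 0 at an unadjusted p under 0.05 at any time. The 5 tested genes of antigen presentation and interferon response had 0.19, -0.07 and -0.32, and 15 others of that list were too low to test.

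The remaining lists had these medians at 1 d, 7 d and 14 d. The 11 genes of gap junctions and axon contact had 0.20, 0.41 and 0.17, 7 genes of precursors and new oligodendrocytes 0.22, 0.15 and 0.20, and 4 genes of iron handling 0.55, 0.40 and 0.19. The 6 nuclear long non-coding RNAs had -0.35, -0.33 and 0.12, 4 genes of p53 and cell death 0.54, 0.12 and 0.15, and 9 genes of Wnt signaling 0.11, 0.24 and 0.14. None of these lists had more than 1 member at an unadjusted p under 0.05 in either direction at any time.

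Genes with the smallest p in each direction, none past the threshold in edgeR, were as follows. At 1 d they were Serpina3n, the adducin Add3 (1.71) and the dehydrogenase Gpd1 (2.47), and in the lower direction Rufy3 (-2.22), the kinase Tlk1 and Fam228b, both at 0 UMIs in the WT 1 d mouse, with adjusted p of 0.719 to 0.821. Add3 was at 1114 (WT), 816 and 509 (cKO) normalized CPM at 1 d and at 383 or below in all other mice. At 7 d they were the talin Tln1 (1.40) and Serpina3n, and the protease Htra1 (-1.69), Uchl1 (-2.23) and Aldoc (-2.09), all with an adjusted p of 0.823. At 14 d they were C4b, the cofactor Zmiz1 (1.47) and Trp53bp2 (1.62), and Enho (-2.85), the hemoglobin gene Hba-a2 (-4.99) and Cldn5 (-2.83), with adjusted p of 0.567 to 0.676.

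Enho, a gene of a secreted peptide, was at 43.0 and 192 (WT) and 59.4 and 234 (cKO) normalized CPM in uninjured mice and at 11.6 and 31.5 (WT) and 7.14 and 12.04 (cKO) at 14 d. The groups did not overlap. Enho passed in DESeq2 (log2 -3.11, adjusted p = 0.0365) together with Hba-a2 (-5.51, adjusted p = 0.00870), the 2 falls among the DESeq2 calls (0.0317%), and with the replicate block in edgeR (-3.01, adjusted p = 0.00396). Hba-a2 also passed in edgeR without WT uninjured replicate 1 (adjusted p = 0.0134). With the block, 3 genes were higher and 7 lower at 14 d (0.159%): C4b, Gm10719 and Gm10800, and Enho, Cldn5, Slco1a4, Nefh, Gpr37l1, Hba-a2 and Slc7a5. Among these 7, 4 genes (Cldn5, Slco1a4, Nefh and Hba-a2) are markers of other cell types, and all 7 were lower in Cluster 4 than in the other cells.

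Fits within or across the animal number series gave more falls of that kind. With the series in the design edgeR called 1 rise and 24 falls at 7 d (0.397%) and 3 rises (Serpina3n, C4b and Klk6) and 84 falls at 14 d (1.38%). Of the 84 falls 14 were listed markers of other cell types, among them Nefl (-3.15), Snap25 (-2.80), Aqp4 (-3.08) and Cldn5 (-3.41), and 79 had a lower level in Cluster 4 than in other cells. Over all 6302 genes those numbers were 37 and 3347. In mice of 10000 and above there were 1 rise and 6 falls at 7 d (0.0734%) and 9 rises and 70 falls at 14 d (0.828%), of which 12 falls were listed markers. The 9 rises were C4b, Kirrel3 (2.76), Palm2 (2.77), Spock1 (2.49), Zfp536 (1.81), A230001M10Rik (3.81), C030029H02Rik (2.28), Tmem132d (2.64) and Fmn1 (2.62), and 0 of these was lower in Cluster 4 than in other cells.

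Markers of other cell types were themselves uneven between the mice, in Cluster 4 cells. The 8 neuron markers had medians of -2.71, -1.86 and -1.62 at 1 d, 7 d and 14 d, 8 of 8 below 0 each time, the 8 astrocyte markers -1.14, -1.33 and -0.79, and 5 tested endothelial markers -2.56, -1.39 and -2.08. The summed neuron markers ran from 79.5 normalized CPM (WT 1 d replicate 1) to 2899 (cKO uninjured replicate 2), with Meg3 the most abundant. The astrocyte sum ran from 242 (WT 7 d replicate 1) to 3267 (WT uninjured replicate 2, led by Slc1a2), and the endothelial sum from 45.4 to 1204 in the same 2 mice, led by Flt1. Red blood cell markers, led by Hbb-bs, ran from 5.36 (cKO 14 d replicate 1) to 1814 (WT 1 d replicate 1). Uninjured mice of the upper series were the highest or next to it for neurons, astrocytes and endothelium. Their part in the falls with time was not tested.

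Pericyte markers, led by Rgs5, reached 472 normalized CPM in WT 14 d replicate 2 and were at most 90.8 in every other mouse, and 152 of the 161 Rgs5 UMIs of that mouse lay in a single cell. Schwann cell markers lay between 38.4 and 288, mostly Sox2, which glial cells also express, while Pmp2 was at 0 in all mice. Precursor markers lay between 30.3 and 198, fibroblast markers between 0 and 410, leukocyte markers between 0 and 179 and ependymal markers between 0 and 42.2, and no ependymal gene was abundant enough to test. The 13 mitochondrial mRNAs summed to 8160 (WT 14 d replicate 1) up to 41016 (cKO 1 d replicate 1), and 5 mice of the lower series lay at or above 32305 while the other 10 lay at or below 17538. Their median log2 difference was 0.35, 0.15 and -0.95. The sums at 14 d, 8160 to 11757, lay below those of the uninjured mice of both series, 11793 to 36752, the nearest by little. All 14 d mice belong to the upper series, while the highest uninjured sum was in the lower series. The part of the series in the median at 14 d was not tested.

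**Figure D4:**
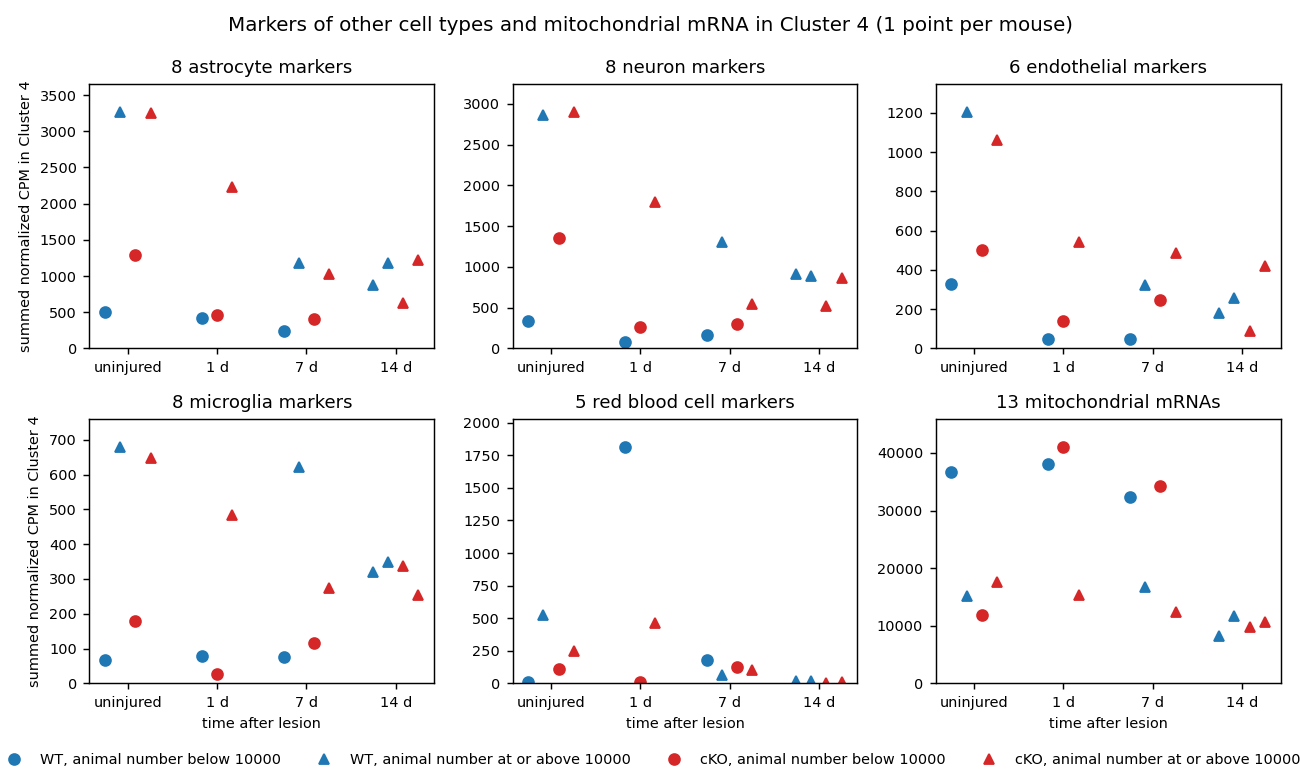
Summed normalized CPM of marker lists of other cell types and of mitochondrial mRNAs in Cluster 4 cells against time after the lesion, with 1 point per mouse (n = 15 mice), color for genotype and shape for the animal number series. Astrocyte and neuron markers are highest in the uninjured mice of the upper series, at up to 3267 and 2899, and mitochondrial mRNAs are highest in the lower series, at up to 41016.

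For the knockout, Ryk itself (ENSMUSG00000032547.12, chromosome 9, 102834917 to 102908305) was low in Cluster 4 in both genotypes. Uninjured mice were at 74.7 and 25.6 (WT) and 47.6 and 18.0 (cKO) normalized CPM, and injured mice between 29.1 and 79.5 in WT (median 52.4, n = 5) and between 28.2 and 66.9 in cKO (n = 6). The groups overlapped at every time with more than 1 mouse per group. The log2 difference of Ryk, cKO minus WT, was -0.75 (SE 0.78) in uninjured and -0.16 (SE 0.40) in injured mice, with edgeR adjusted p of 0.980 and 1.00. A tag from the 3′ end can lie outside the deleted part of a gene, and oligodendrocytes are not the cells in which GFAPcreERT2 was meant to act. Recombination in Cluster 4 cells was not examined, so these values do not measure the deletion.

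Genotype comparisons ask whether loss of Ryk from astrocytes goes with changes in Cluster 4 cells. The edgeR counts at a Benjamini-Hochberg adjusted p under 0.05 were 0 (0.0%) in uninjured mice, at 1 d, at 7 d, at 14 d, over all injured mice and for the difference between injured and uninjured mice (genotype by injury). At an unadjusted 0.05 they were 311, 226, 125, 52, 153 and 251 genes. DESeq2 called 1 gene at 7 d (Cwc22, 0.0159%) and 0 in the other 5. The spread between the mice of a group was wide, with 1 or 2 mice per group.

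Over injured mice, cKO minus WT, the medians were -0.09 for the 16 oligodendrocyte markers, -0.07 for myelin structure, -0.07 for lipid and sterol synthesis, -0.03 for lineage factors and 0.25 for the disease-associated list, beside 0.08 over all genes. Serpina3n had a log2 difference of -0.47 (SE 0.64), C4b of 0.05 (SE 0.44) and Klk6 of -0.62 (SE 0.73), each smaller than its error or close to it. Neuron, astrocyte and endothelial markers had medians of 1.03, 0.98 and 1.70, which include the comparison at 1 d of WT 1 d replicate 1 with a cKO pair of which 1 mouse belongs to the upper series. In mice of 10000 and above alone these medians were -0.79, -0.18 and 0.52.

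Npsr1 (chromosome 9, 24097996 to 24316398), which encodes the neuropeptide S receptor, followed single mice. It had a UMI in 50 of 188 Cluster 4 cells of cKO 1 d replicate 2, 42 of 90 of cKO 7 d replicate 2, 46 of 111 of cKO 14 d replicate 1 and 86 of 194 of cKO 14 d replicate 2. These mice stood at 319, 1053, 396 and 475 normalized CPM. The other 11 mice had at most 4 Cluster 4 cells with Npsr1 and at most 75.6 CPM, that value from 13 UMIs in 1 cell of WT 14 d replicate 1. Thus all 4 injured cKO mice with numbers of 10000 and above were high, and both injured cKO mice below 10000 had 0 UMIs.

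Npsr1 was not past the threshold in the designed fit (edgeR adjusted p = 1 at 7 d and 1.00 over injured mice). In mice of 10000 and above it was the 1 rise over injured mice (edgeR adjusted p = 0.0243, 3 calls, 0.0314%), and 0 UMIs in several mice make its fitted fold no bound. The 4 high mice all had Y-linked transcripts, as did WT 14 d replicate 1 among WT mice of the upper series with injury, while WT 7 d replicate 2 and WT 14 d replicate 2 had mainly Xist. Sex and genotype therefore overlap in part in these mice. Npsr1 lies 78.5 Mb from Ryk on the same chromosome. Other cells of the 4 mice had 13.8 to 34.8 CPM of Npsr1, and Cluster 4 cells were thus far above them.

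At 7 d the genes lowest in cKO were Cwc22 (-4.91), Tcf7l2 (-3.23) and Rras2 (-4.06), and the highest Npsr1 and Gm10701 (2.77), all with an edgeR adjusted p of 1. Each of the 3 low genes turned on WT 7 d replicate 2. Cwc22, a splicing factor gene, was at 1357 normalized CPM there and at most 107 in any other mouse, was found in 54 of its 62 Cluster 4 cells, and stood at 1073 CPM in its other cells against 16.9 to 37.3 CPM in the other cells of the other 14 mice. DESeq2 called Cwc22 (adjusted p = 0.0414). Cwc22 was thus high in the cells of that mouse in general.

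Tcf7l2, a Wnt-responsive transcription factor of newly formed oligodendrocytes, and Rras2 came instead mostly from 1 cell of WT 7 d replicate 2. That cell had 35255 UMIs, 21.2% of the mouse's 166302 Cluster 4 UMIs, and held 104 of its 116 Tcf7l2, 95 of its 100 Rras2, 530 of its 575 Frmd4a, 245 of its 247 9630013A20Rik and 49 of its 72 Enpp6 UMIs. It held 1 of 890 Ptgds and 1 of 58 Opalin UMIs, 7 of 8 Gpr17 and 0 Pdgfra UMIs. These genes were chosen after their values were seen. Without WT 7 d replicate 1, edgeR called 10 falls at 7 d, Cwc22, Tcf7l2 and Rras2 among them, and in mice of 10000 and above 8 falls (0.0838%). In both fits WT 7 d replicate 2 is the only WT mouse at 7 d, assumed to vary like the mice of other conditions, so that these calls describe that mouse. With cells of at most 20000 UMIs, which removes that cell, the log2 difference of Tcf7l2 at 7 d was -1.31 in place of -3.23.

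In uninjured mice the gene with the smallest p was Sgk1 (ENSMUSG00000019970.15, chromosome 10, 21882184 to 21999903), a kinase gene that glucocorticoids induce. It was at 1053 and 141 (WT) and 47.6 and 18.0 (cKO) normalized CPM uninjured, 461 (WT), 1210.5 and 623 (cKO) at 1 d, and between 73.4 and 182 at 7 d and 14 d. Both uninjured WT mice were above both cKO mice, and 1 of them, WT uninjured replicate 1, carried most of the size. The log2 difference of Sgk1, cKO minus WT, was -4.13 (SE 0.88, edgeR adjusted p = 0.937) in uninjured mice and 0.63 (SE 0.43) over injured mice, and the difference between both was 4.76 (SE 0.98, adjusted p = 1.00). With the animal number series in the design the latter passed in edgeR (4.84, adjusted p = 0.0355, the only call, 0.0159%). Without WT uninjured replicate 1, which leaves 1 uninjured WT mouse, the values for Sgk1, genotype uninjured and Sgk1, genotype by injury were -1.99 and 2.61. Without WT uninjured replicate 2, which leaves only replicate 1, assumed to vary like the mice of other conditions, Sgk1 passed in uninjured mice (edgeR adjusted p = 0.0120) and for genotype by injury (adjusted p = 0.00908).

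Other glucocorticoid response genes shared this pattern only in part. Fkbp5 was at 118 and 12.8 (WT) and 0 and 18.0 (cKO) normalized CPM uninjured and at 63.6 (WT), 267 and 75.3 (cKO) at 1 d, and Zbtb16 at 505, 38.4, 214 and 72.0 and at 350, 619 and 415. WT uninjured replicate 1 and the mice at 1 d were high in both genes, but WT uninjured replicate 2 lay below a cKO mouse in both. Tsc22d3 was highest in WT uninjured replicate 2, at 218, and lay between 88.2 and 111 at 1 d. The list's median over 13 tested genes was -1.08 in uninjured mice, 0.60 over injured mice and 1.93 for genotype by injury, beside 0.00, 0.08 and 0.17 over all genes. Some of its genes were at 0 UMIs in 1 group, so that their fitted values are no bounds. In mice of 10000 and above the medians were -0.30, 0.56 and 1.32. The value for uninjured mice compares only WT uninjured replicate 2 with cKO uninjured replicate 2, and genotype by injury uses the same mice. The medians of the upper series do not include WT uninjured replicate 1, the mouse that also held Xist and Y-linked transcripts.

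Also in uninjured mice, the 16 oligodendrocyte markers had a median of -0.72 and 13 of 16 lay below 0, with Ptgds at 19088 and 7289 (WT) and 4565 and 3097 (cKO) normalized CPM and Olig1 at 550.2 and 307 (WT) and 131 and 216 (cKO). WT mice were above cKO mice in both genes. Neuron markers went the other way in the same comparison (median 0.64, 8 of 8 above 0), as did 2 tested Schwann cell markers (3.90), and mitochondrial mRNAs had a median of -0.90 with 10 of 13 below 0. The median was -0.47 in mice of 10000 and above, beside -0.01 over all genes. That value compares only WT uninjured replicate 2 with cKO uninjured replicate 2. Over injured mice Ptgds overlapped, at 3842 to 19662 in WT (median 10662, n = 5) and 6246 to 13850 in cKO (n = 6). The other 5 genes with the smallest p in uninjured mice, none past the threshold, were Atxn1 (1.96), Rps6ka2 (2.85) and Gm32122 (2.93), higher in cKO, and Cntfr (-2.59) and Ccdc47 (-2.35), lower, with adjusted p of 0.937.

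At 1 d, where WT is 1 mouse, the genes with the smallest p were Purb, Appl2 and Kdm5a, higher in cKO, and Tspan14 (-2.14), Stx12 (-2.13) and Gm43322 (-2.22), lower, with adjusted p of 0.985, and Appl2 and Kdm5a were at 0 UMIs in the WT mouse. At 14 d they were Kctd16 (2.47), St3gal1 (1.87) and Hsd17b7 (2.84), and Fcho1 (-4.11), Rgs5 (-3.55) and Pde8b (-2.24), each with an adjusted p of 1. In cKO 14 d replicate 1 a single cell held 136 of the 155 Hsd17b7 UMIs, and in WT 14 d replicate 2 a single cell held 152 of the 161 Rgs5 UMIs. Fcho1, an endocytosis gene, was at 81.4 and 135 (WT) and 3.57 and 8.03 (cKO) normalized CPM at 14 d, without overlap, and at 36.0 or below in every other mouse. It was called by edgeR in mice of 10000 and above (-4.15, adjusted p = 0.0455, the only call, 0.0105%).

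Over injured mice the 3 genes highest in cKO by p were Appl2, Npsr1 and Usp47, each at 0 UMIs in the WT 1 d mouse, and the lowest Tcf7l2 (-1.54), Gm43322 (-0.86) and Bicc1 (-1.01). For genotype by injury they were Sgk1, Appl2 and Hist1h1c, and the glutamate transporter Slc1a3 (-2.21), AC118724.1 (-2.67) and Carns1 (-2.27). All had an edgeR adjusted p of 1.00, and none passed in the designed fit. Without the 4 libraries that share barcodes, a choice made after seeing the data, edgeR called 7 rises and 3 falls for injury at 14 d, C4b (2.64, adjusted p = 0.0184) and Serpina3n (3.89, adjusted p = 0.0110) among the rises, and 1 rise and 3 falls over injured mice for genotype. Without the cells that share a barcode it called 0 in all 9 comparisons.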

How the data were processed

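The deposited count matrix holds raw UMI counts that the authors made with Cell Ranger (no version stated) on mm10, without normalization, for 55487 genes and 18203 cells, of which 41193 genes had a count. The deposited percentages of mitochondrial and hemoglobin UMIs were computed per cell by the authors from the same counts. The other deposited columns, cell names, gene symbols, batch, sample and cluster, are labels given by the authors with Seurat in R 4.1.2 after Harmony and clustering, and the cluster names come from them. The filter of the authors removed cells at 25% mitochondrial UMIs or beyond and cells with 200 genes or fewer, and the highest and lowest values here were 24.992% and 201. Totals of UMIs and genes in the cell table equalled the matrix in 18203 cells.

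Counts of Cluster 4 cells were summed per mouse, for mice with at least 10 such cells, and each mouse was 1 replicate. Genes were kept by filterByExpr of edgeR 4.0.16 (6302 genes), scaled by TMM, and tested with quasi-likelihood F tests on 8 condition means, at a Benjamini-Hochberg adjusted p under 0.05 over all genes tested. DESeq2 1.42.0 served as an alternative, with limma 3.58.1 loaded by edgeR, in R 4.3.3. Normalized CPM are counts over TMM-scaled library sizes. Other steps used Python 3.11.15, numpy 2.4.6, scipy 1.17.1, pandas 2.3.3 and matplotlib 3.10.9. The fitting code was tested on simulated data.

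Shares used mice with at least 50 cells and exact two-sided permutation of mice, with 95% Clopper-Pearson intervals that cover counting error only. Comparisons of clusters added 50 CPM (5 CPM as an alternative) and used mice with at least 10 cells in both clusters. Thinning drew 500 UMIs per cell with seed 1. No doublets were called or removed. The replicate number equals the batch in the cell table in 16 of 16 mice, so that it served as a block. As a check of this pairing, the deviation of each first replicate from its condition mean in log2 CPM was compared across genes with that in every other condition. The median correlation across genes, which are not independent replicates, was 0.189 over 21 pairs of conditions, of which 14 lay above 0.1, and 0.295 over the 10 pairs without 14 d mice.

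Members and gene lists were chosen with earlier results of these data known. Genes named in the text are the given markers, members of the lists, the 3 genes with the smallest p in each direction, the 10 with the largest ratio between clusters, and genes called under another setting. The fits without the 4 libraries that share barcodes, without cells that share a barcode, with cells of at most 20000 UMIs and in animal numbers below 10000, and the gene fits in animal numbers of 10000 and above, were added after the data had been seen. Gene coordinates are those of GENCODE M21 on mm10. Some genes that these rules would name are not reported here.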

Additional observations from a re-analysis of the deposited data

Results flagged for a closer look

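The share of Cluster 4 among all cells differed from the pooled result within each animal number series. Injured minus uninjured was -4.99 points in mice with numbers below 10000, where every injured mouse lay below both uninjured mice, and 4.60 points in mice with numbers of 10000 and above, where every injured mouse lay above both uninjured mice. The share of Cluster 4 among the cells of Clusters 4 and 8 did the same, with -12.2 points below 10000 and 16.6 points from 10000 on. The difference between the series was not tested. With cells of at least 500 UMIs only, the share of all cells below 10000 was 13.3% to 16.2% in injured mice and 13.9% and 17.9% in uninjured mice, so that they overlapped. Of Clusters 4 and 8, Cluster 4 then made up 59.4% to 63.7% in these injured mice. In the uninjured ones it made up 74.5% and 80.6%, so that this share stayed apart. Depth, barcode sharing and injury cannot be told apart below 10000.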

How the results depend on the processing

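Counts called by edgeR, 0 in all 9 comparisons, were set beside other settings. DESeq2 called 1 for injury at 1 d, 3 at 14 d and 1 for genotype at 7 d. Without the filter on low counts they were 26, 42 and 44 for injury at 1 d, 7 d and 14 d, and 1, 8, 13, 8, 2 and 1 for genotype uninjured, at 1 d, at 7 d, at 14 d, injured and by injury. With the animal number series in the design they were 2, 25 and 87 for injury and 1 for genotype by injury. In animal numbers below 10000 they were 55 at 1 d and 51 at 7 d, and from 10000 on 7 at 7 d and 79 at 14 d for injury, and 8 at 7 d, 1 at 14 d and 3 injured for genotype. Without the 4 libraries that share barcodes they were 10 for injury at 14 d and 8, 1 and 4 for genotype at 7 d, 14 d and injured. With the replicate block, which pairs mice by batch, they were 1 for injury at 1 d and 10 at 14 d, and the block changed no other call. With 5 CPM added, 274 genes set Cluster 4 apart from Cluster 8 (153 with 50 CPM), and thinned counts gave 301 against precursor cells (757 unthinned). The share of all cells by injury reversed to 0.948 points in cells with at least 500 UMIs and 4.60 points from 10000 on, and by genotype to -0.245 points with at least 500 UMIs and -0.00261 points without cells that share a barcode. The share of Clusters 4 and 8 reversed with the conditions of the cell names (-2.93 points by injury, 4.67 by genotype), which also moved the share of all cells to -2.74 points by injury and 2.49 by genotype, and below 10000 (-12.2 and 2.81 points). Reversed log2 differences were 0.0127 for Tlk1 (injury at 1 d) in animal numbers of 10000 and above. Under the cell-name conditions they were 0.18 for Uchl1 at 7 d, 0.10 and 0.28 for Cwc22 and Rras2 by genotype at 7 d, and 3.39 and 1.87 for Rgs5 and Pde8b by genotype at 14 d. Leaving out 1 mouse gave 0 to 1 calls for injury at 1 d, 0 to 0 at 7 d and 0 to 1 at 14 d, and for genotype 0 to 1 uninjured, 0 to 0 at 1 d, 0 to 10 at 7 d, 0 to 0 at 14 d, 0 to 0 injured and 0 to 1 by injury. It gave -2.31 to 2.11 and -0.732 to 1.68 points for the share of all cells by injury and genotype, and -1.86 to 7.93 and -3.15 to -0.0359 points for that of Clusters 4 and 8. Of the values for named genes, 550 kept their direction and call, 58 became stronger and 6 reversed.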
